A study of Rattus norvegicus with 35 samples.

Results

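The step from 24 h to 48 h after intraorbital nerve crush (IONC) was examined in the rat retina. Its members were the 3 arrays of IONC 48 h and the 3 arrays of IONC 24 h, 6 of the 35 arrays of the series, taken by their labelled lesion and time. All animals were adult female Sprague-Dawley rats, and in the IONC groups the left optic nerve had been crushed behind the eye while the animal was anaesthetised. One array stood for a pool of 4 retinas, each from another rat, and the spread described here is therefore between pools. The naive group (5 arrays) had no lesion and gives levels, and entered the model only in alternative fits to all arrays. The IONC 3 d and 7 d groups (3 arrays each) entered the model, which gave all 4 groups 1 estimate of the spread. Whole retinas were extracted, so the ganglion cells contributed only a part of the RNA. From the arrays alone, fewer cells of a type and less RNA per cell cannot be told apart. For the ganglion cells, the paper states that no death is seen at its early times, which include both groups compared here. It reports a loss of these cells by the last time after crush. Cell number was not tested here.

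Retinal ganglion cells (RGCs) are the output neurons of the retina. Their somata lie in the inner retina and their axons form the optic nerve, so a nerve crush severs or damages the axon of every ganglion cell while other retinal neurons keep their processes. RGCs are known to lower the expression of their characteristic genes after axotomy and many later die. Müller glia, the radial glia of the retina, and microglia, its resident immune cells, are known to respond to such a lesion. The comparison asks when the ganglion cell genes began to decline and what the glial genes did over the same day.

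In the 6 arrays the median log2 value lay between 4.31 and 4.35, any 2 arrays correlated with r from 0.985 to 0.996 across probe sets, and the gap between 3′ and 5′ control probe sets for β-actin, a measure of RNA and labelling quality, lay between 1.64 and 1.92. In the naive group that gap was 1.75 to 1.90 in 3 arrays and 2.98 and 3.19 in the other 2. Naive levels are therefore given over all 5 arrays, and for Thy1, Sncg, Fxyd7 and Gfap also over those 3. Array 1 at 48 h had the lowest median correlation with the other arrays of the series among the 6 (0.986), and array 2 at 24 h carried higher levels of pigment epithelium and lens genes than the other 24 h arrays. Rod genes were at the top of the scale in every array, with Gnat1, rod transducin, between 13.61 and 14.20.

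At the thresholds of the study's methods (adjusted p under 0.01, log odds B above 0, at least 1.2-fold), 2 probe sets rose from 24 h to 48 h, 0.00644% of the 31042 tested, and 1 fell, 0.00322%. Without adjustment, 1388 probe sets were higher and 1387 lower at p under 0.05. At an adjusted p under 0.05, 22 probe sets were higher and 10 were lower. Counted as genes, each represented by 1 probe set, 11 were higher (0.0774% of 14217 genes) and 6 were lower (0.0422%). In what follows, "rose" and "fell" are kept for the study's thresholds, and "lower" or "higher" with an adjusted p under 0.05 names the looser level. All adjusted p-values are from limma with Benjamini-Hochberg adjustment over all probe sets.

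The ganglion cell genes held most of the lower group. Of the 6 genes that were lower at an adjusted p under 0.05, 4 belonged to the list of RGC identity genes, of which 21 of 24 were measured. Over all genes 0.0422% were lower at that level. The list was chosen with earlier results of these data known, so the count is a description and not a test. The 4 were Thy1, a surface glycoprotein, Nrn1 (neuritin, a neurite growth protein), Sncg (γ-synuclein) and Rbpms2, an RNA-binding protein, all known as ganglion cell markers in the retina. The other 2 were Fxyd7, a regulator of the sodium pump known from brain, and Cul1, a scaffold of ubiquitin ligases.

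Promoter sequences were looked up for the 4 ganglion cell genes that were lower together, and 2 of the 4 had an entry. The 250 bases before the transcription start are shown from RefSeq, build GRCr8, 5′ to 3′ on the gene's strand, for Sncg (chr16:9711337-9711586, minus strand) and Rbpms2 (chr8:75048470-75048719, plus strand). Capitals mark matches, on either strand, to 3 general promoter motifs, the TATA box (TATAAA), the CCAAT box (CCAAT) and the GC box (GGGCGG).
Sncg: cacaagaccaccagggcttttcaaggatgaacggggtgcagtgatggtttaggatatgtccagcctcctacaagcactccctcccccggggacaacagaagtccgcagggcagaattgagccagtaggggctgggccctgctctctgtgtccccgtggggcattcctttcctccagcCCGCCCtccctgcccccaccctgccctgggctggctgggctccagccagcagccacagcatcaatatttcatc
Rbpms2: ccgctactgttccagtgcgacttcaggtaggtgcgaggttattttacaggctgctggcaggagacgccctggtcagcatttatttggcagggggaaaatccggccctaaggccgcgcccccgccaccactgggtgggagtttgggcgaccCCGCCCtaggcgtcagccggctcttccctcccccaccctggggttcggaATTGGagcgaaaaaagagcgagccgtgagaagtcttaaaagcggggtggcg
Each window held 1 GC box on the opposite strand, 67 bases before the start in Sncg and 94 bases before it in Rbpms2, and Rbpms2 also held 1 CCAAT box on the opposite strand. Neither held a TATA box in these letters. Among 33469 promoter windows of the same length, 30.5% held a GC box, 34% a CCAAT box and 12.9% a TATA box. The matches describe the windows and say nothing of what binds there.

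Thy1 had log2 values of 9.32, 9.44 and 9.33 in the 24 h arrays and of 7.81, 8.38 and 8.27 in the 48 h arrays. Every 48 h array was below every 24 h array, and the difference of -1.21 ± 0.13 (SE, n = 3 per group) is a 2.31-fold lower level (limma adjusted p = 0.0272). A second Thy1 probe set was lower by a similar amount (-1.50, adjusted p = 0.0553). The naive arrays ranged from 8.16 to 9.75, and the 3 with the low β-actin gap from 9.47 to 9.75.

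Nrn1 stood at 8.28, 8.26 and 8.01 at 24 h and at 5.79, 6.55 and 6.81 at 48 h. The groups did not overlap, and the difference was -1.80 ± 0.24 on the log2 scale, or 3.48-fold (limma adjusted p = 0.0400). Naive arrays lay between 8.67 and 8.99, all of them above every 24 h array.

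Sncg was measured at 11.39, 11.39 and 11.55 at 24 h and at 9.83, 10.38 and 10.36 at 48 h. All 3 values at 48 h were more than 1 log2 unit under those at 24 h, with a difference of -1.26 ± 0.17 (limma adjusted p = 0.0400). The naive range of 11.02 to 11.86 held the 24 h values and none of the 48 h values. The 3 naive arrays with the low β-actin gap lay between 11.68 and 11.86, above every 24 h array.

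Rbpms2 had values of 6.87, 7.15 and 6.75 at 24 h and of 4.98, 5.22 and 5.42 at 48 h. Again the groups were apart, by -1.72 ± 0.24 (limma adjusted p = 0.0455), while naive arrays lay between 7.26 and 7.43. A second Rbpms2 probe set was under a log2 value of 3 in both groups, near the lower end of the scale, and gave no information. Its relative Rbpms, another marker of ganglion cells, had a difference of the same size (-1.74 ± 0.51) with more spread, 7.47, 8.05 and 7.17 at 24 h against 5.16, 5.84 and 6.49 at 48 h, and did not pass (limma adjusted p = 0.336).

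**Figure D1:**
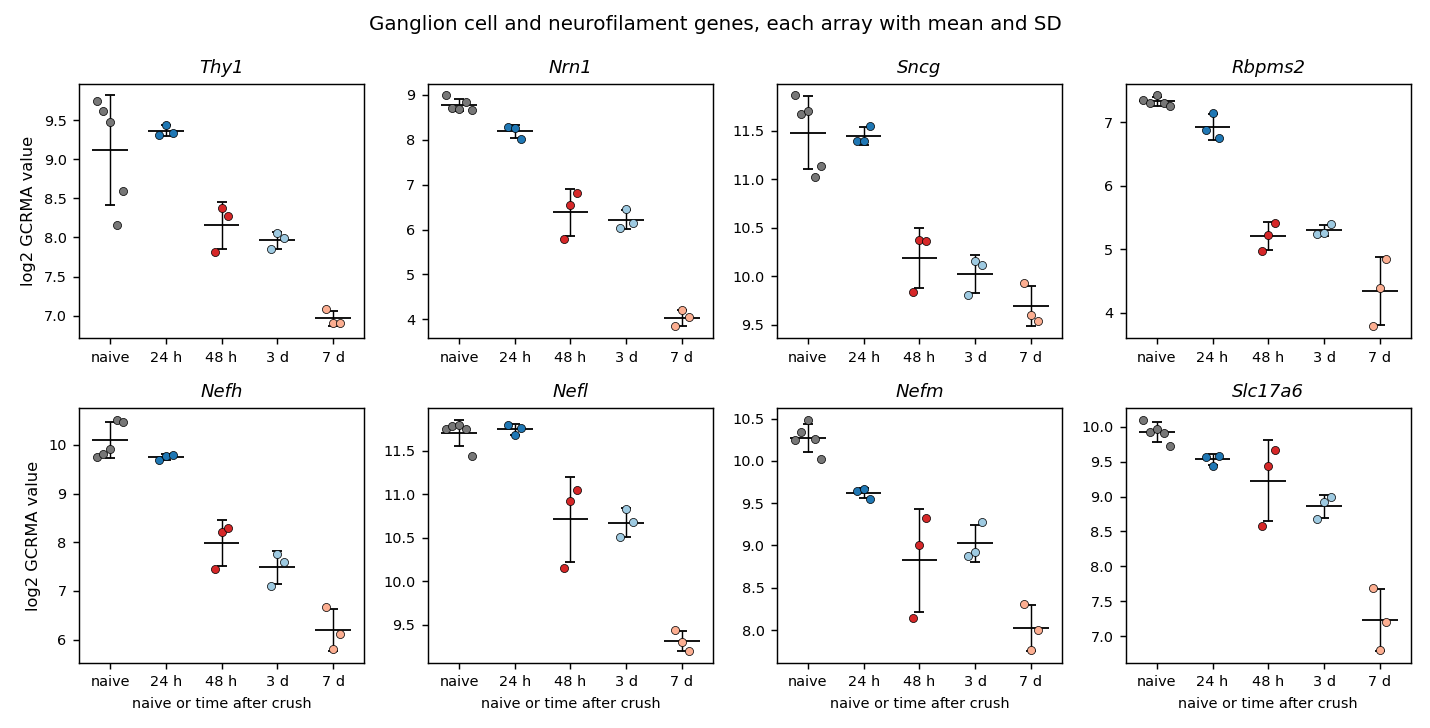
Log2 GCRMA values (y axis) of 4 RGC identity genes, 3 neurofilament genes and Slc17a6 in each naive array and in each array at 24 h, 48 h, 3 d and 7 d after crush (x axis), with the mean as a line and the SD as a bar. In 7 panels the points show every 48 h array under every 24 h array, while in Slc17a6 array 1 alone lies low at 48 h.

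Across the whole RGC identity list, 18 of the 21 measured genes had a lower mean at 48 h than at 24 h and 3 a higher one, with a median difference of -0.34 against 0.00 over all genes, of which 43.4% had a lower and 56.6% a higher mean. In 3 of the 21 both means were under a log2 value of 3. At an unadjusted p under 0.05, 10 of 21 were lower and 0 higher, where 4.81% of all genes were lower and 6.22% higher. The 48 h arrays all lay below the 24 h arrays for 10 of 21 genes and all above for 0, where the shares over all genes were 5.27% and 7.08%. Set against the 5 naive arrays, all 24 h arrays lay below all naive arrays in 4 of 21 genes (1375 of all 14217 genes). The 48 h arrays did so in 10 of 21 (1235 of 14217). No member passed the study's thresholds from 24 h to 48 h. Besides the 5 described, the genes at an unadjusted p under 0.05 were Scn1a (-0.97), Chrna6 (-0.82), Ebf1 (-0.79), Nell2 (-0.77) and Pou4f1 (-0.40), of which Chrna6, Ebf1 and Nell2 are named after their values were seen. Scn1a encodes a neuronal sodium channel and Chrna6 a nicotinic acetylcholine receptor subunit. Pou4f1, a transcription factor that marks RGCs, was near the lower end of the scale in all 6 arrays, from 2.89 to 3.48.

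The list did not move as one. Slc17a6, the vesicular glutamate transporter VGLUT2, had log2 values of 9.57, 9.44 and 9.58 at 24 h and 8.57, 9.44 and 9.67 at 48 h. Every 24 h array was below the naive range of 9.72 to 10.10. Only array 1 was low at 48 h, the groups overlapped, and the difference of -0.30 ± 0.29 became 0.02 without that array. Tubb3, Mapt, Uchl1 and Opn4 had differences of -0.34, -0.30, -0.21 and -0.26 that did not pass, and these 4 are also named after their values were seen. Eomes, Tbr1 and Chrnb3, the 3 members with a higher mean, differed by at most 0.07 and were at means of at most 3.34 in both groups. The median over the list, set against the mean of the 24 h arrays, was -0.81, -0.18 and -0.34 in 48 h arrays 1, 2 and 3, so array 1 stood lowest. Without it the list median was -0.23, and the 4 genes had differences between -1.04 and -1.60, of which those of Thy1 and Nrn1 passed an adjusted p under 0.05. The calls at that level depended on the arrays in the model. Of the RGC identity genes, 0 passed with the 24 h and 48 h arrays alone, 0 without 24 h array 2, 0 without 24 h array 3, 0 with all 15 IONC arrays, 1 with all 35 arrays (Nrn1), 2 without 24 h array 1 (Thy1 and Pou4f1), 1 without 48 h array 2 (Thy1) and 5 without 48 h array 3.

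The neurofilament genes, which encode the intermediate filaments of large axons, ran in the same direction. All 5 filament genes measured had a lower mean at 48 h (43.4% of all genes), with a median of -0.95. At an unadjusted p under 0.05, 3 of 5 were lower (4.81% of all genes). Nefh, the heavy chain, had values of 9.68, 9.77 and 9.79 at 24 h and 7.44, 8.22 and 8.28 at 48 h, a difference of -1.77 ± 0.28 (3.41-fold). It did not reach an adjusted p under 0.05 (limma adjusted p = 0.0737), although the groups did not overlap. Nefl, the light chain, had a difference of -1.04 ± 0.20 (limma adjusted p = 0.157) with values of 11.80, 11.68 and 11.76 against 10.15, 10.93 and 11.05, and its second probe set one of -1.35 (adjusted p = 0.0870). Nefm, the medium chain, was at 9.56 to 9.66 at 24 h, below the naive range of 10.02 to 10.49. It differed by -0.80 ± 0.27 from 24 h to 48 h and Prph, peripherin, by -0.95 ± 0.42, neither past the test. The 48 h arrays were all below the 24 h arrays in 4 of the 5 genes, where 5.27% of all genes did so. As with the RGC genes, array 1 at 48 h was lowest, with a list median of -1.48 against -0.63 and -0.70 in arrays 2 and 3.

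**Figure D2:**
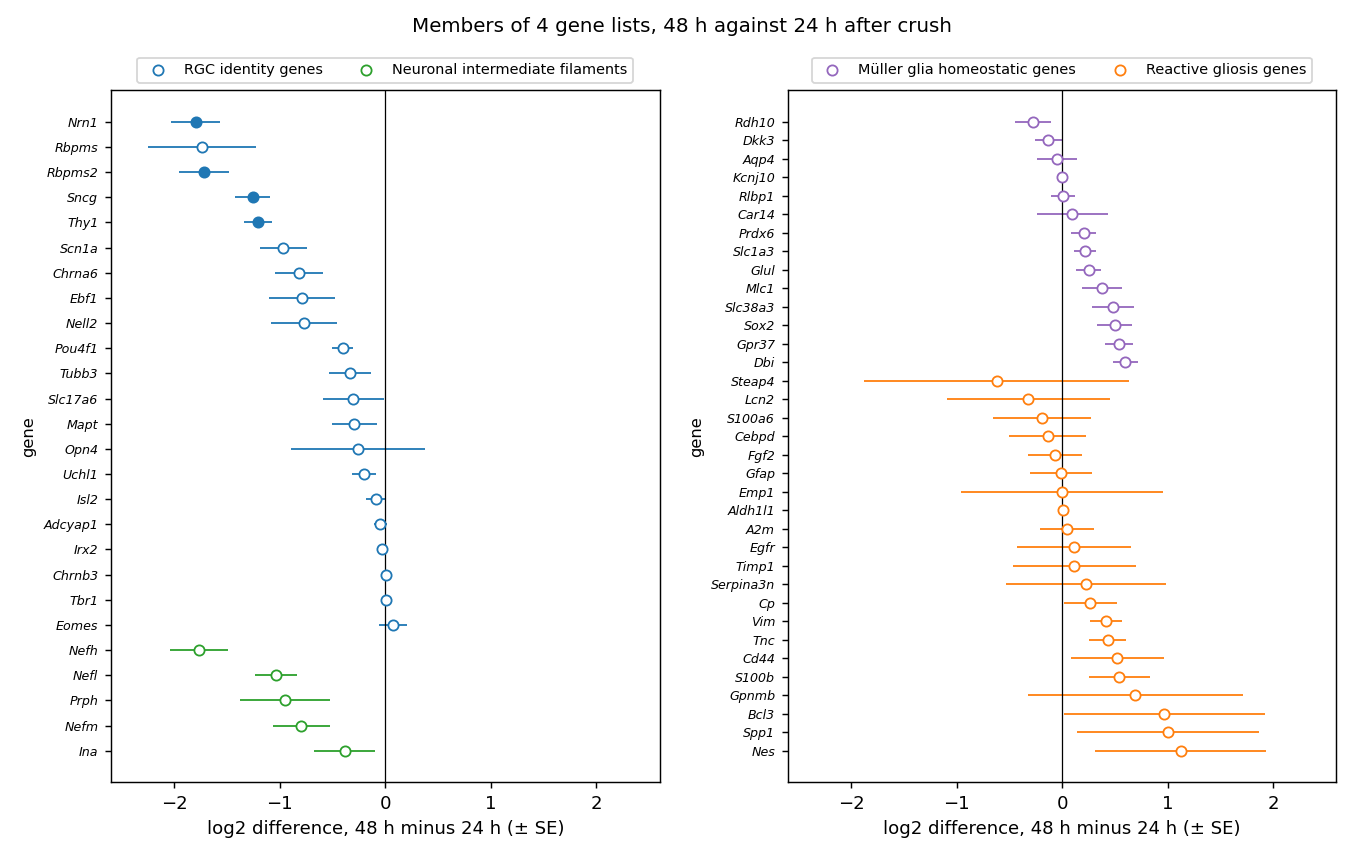
Log2 difference of 48 h minus 24 h (x axis, bars are the SE of the model) for every measured member of 4 gene lists (y axis), with filled points at an adjusted p under 0.05. Filled points occur only in the RGC identity list, at Nrn1, Rbpms2, Sncg and Thy1, all 5 filament genes lie left of 0, and the glial members lie between -0.62 and 1.13.

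The later course placed this step. From 48 h to 3 d, 1 probe set passed the study's thresholds (0.00322%), and from 3 d to 7 d 1 passed (0.00322%). Over the longer span from 24 h to 7 d, 10 probe sets fell (0.0322%) and 1 rose. These 10 stood for 8 genes (0.0563% of genes), of which 4 were RGC identity genes (Thy1, Nrn1, Rbpms2 and Sncg) and 2 filament genes (Nefh and Nefl). The other 2 were Fxyd7 and Rimkla, an enzyme that makes N-acetylaspartylglutamate, named after its value was seen. These comparisons share the 24 h, 48 h or 3 d arrays with the first one, so their values are given side by side and are not independent of it.

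For Thy1 the differences were -1.21 from 24 h to 48 h, -0.19 from 48 h to 3 d and -1.0 from 3 d to 7 d. Nrn1 gave -1.80, -0.16 and -2.19 over the same intervals, and Nefh gave -1.77, -0.49 and -1.29. Sncg gave -1.26, -0.17 and -0.33, and Rbpms2 gave -1.72, 0.09 and -0.95. In each of these 5 genes the interval from 48 h to 3 d, also 1 day long, carried the smallest difference. Thy1, Nrn1, Sncg and Rbpms2 were set out as the RGC identity genes lower at 48 h, and the same 48 h arrays begin the next interval. That choice favours a small difference there, so no pause is read from it. The list medians over the RGC identity genes were -0.34, 0.03 and -0.07, and -0.69 over the whole span from 24 h to 7 d. Slc17a6 took another course, with -0.30, -0.37 and -1.63, and its difference of -2.30 from 24 h to 7 d had an adjusted p of 0.0268 and did not pass the study's thresholds.

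Fxyd7 was the 1 gene that fell between 24 h and 48 h at the study's thresholds. It had log2 values of 4.97, 5.31 and 4.71 at 24 h and 2.58, 3.25 and 2.56 at 48 h, with no overlap and a difference of -2.20 ± 0.19 (limma adjusted p = 0.00938). The 48 h mean of 2.80 lay under a log2 value of 3, where background limits the signal, so the change may be larger than measured. Naive arrays were between 3.27 and 4.40, and the 3 with the low β-actin gap between 4.25 and 4.40, under the 24 h arrays. Its means at 3 d and 7 d were 2.61 and 2.54.

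The last named decreases were of unequal size. A Gnb1 probe set, for a G protein β subunit that rods use, was lower by -3.26 (limma adjusted p = 0.0165), but 2 other Gnb1 probe sets differed by 0.02 and -0.02, so the gene's own level cannot be read from it. Cul1 was lower by -0.34 ± 0.05 (limma adjusted p = 0.0400), with 10.81, 10.93 and 10.89 at 24 h and no 48 h array above 10.58.

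The gene that rose was Rhbdf2, an inactive rhomboid protein that guides the maturation of the TNF-releasing protease. Its values were 3.45, 3.48 and 3.44 at 24 h and 3.89, 3.95 and 3.96 at 48 h, a difference of 0.47 ± 0.03 (limma adjusted p = 0.00108). The replicates were tight and the level was close to the lower end of the scale, so a small difference passed. The other probe set that rose carried no gene symbol and had a difference of 3.04 (limma adjusted p = 0.00127).

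Of the genes that were higher at the looser level, Cpm, a membrane carboxypeptidase, had the largest difference, 2.82 ± 0.36 (limma adjusted p = 0.0400). It went from 4.16, 3.95 and 4.91 to 7.43, 7.44 and 6.61, and naive arrays averaged 4.16. Vit, vitrin, a matrix protein, went from 7.16, 6.43 and 5.85 to 8.68, 8.57 and 8.61 (2.14 ± 0.28). Esrrb, an orphan nuclear receptor, went from 8.90, 8.63 and 8.53 to 9.91, 10.31 and 10.48 (1.54 ± 0.17), towards a naive mean of 10.72. Tbata (1.54) and Tent5c (1.12), a poly(A) polymerase, were tight at both times, Tent5c at 3.46, 3.36 and 3.47 against 4.55, 4.56 and 4.55. Mgat1 (0.80), an enzyme of N-glycan synthesis, Asph (0.59), an aspartate hydroxylase, Scd2 (0.50), a fatty acid desaturase, and Phf6 (0.40) completed the named increases, with adjusted p-values between 0.0104 and 0.0484 for these genes from Cpm to Phf6. A second Phf6 probe set went the other way (-0.56, adjusted p = 0.474) and a second Asph probe set had a difference of 0.33 that did not pass. Another Scd2 probe set, with a 24 h mean of 9.07, differed by 0.16 and did not pass either.

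Genes known to respond in regenerating or injured neurons were mixed. Of 24 measured, 16 had a higher mean at 48 h (56.6% of all genes), with a list median of 0.24, and 5 of the 24 had both means under a log2 value of 3. At an unadjusted p under 0.05, 5 were higher and 1 lower, where the shares over all genes were 6.22% and 4.81%. Ecel1, an endopeptidase-like protein induced in injured neurons, had 2.09, 2.11 and 2.58 at 24 h and 4.29, 6.29 and 4.82 at 48 h. Its 24 h arrays were near the lower end of the scale, where differences are compressed, and its difference of 2.87 ± 0.42 just missed an adjusted p under 0.05 (limma adjusted p = 0.0553). Tnfrsf12a, the TWEAK receptor Fn14, went from 6.23, 5.82 and 5.07 to 8.74, 7.69 and 7.19, with no overlap and a difference of 2.17 ± 0.42 (limma adjusted p = 0.147). Naive arrays averaged 4.52.

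Gap43, a growth cone protein, differed by 0.56 ± 0.32 and Stmn4, a microtubule regulator, by 0.59 ± 0.20, and neither passed. Atf3, an early transcription factor of the axotomy response, differed by -0.44 ± 0.14 (limma adjusted p = 0.358). Sprr1a was dominated by 1 array, with 8.97 in array 1 at 48 h against 4.47 and 3.75 in the other 2, and its difference of 1.39 turned to -0.23 without array 1. Gal, galanin, differed by 1.51 ± 0.89 and also varied between arrays.

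Homeostatic genes of Müller glia had small differences, most of them upward. Of 14 measured, 11 had a higher mean at 48 h and 3 a lower one, with a median of 0.21, and 4 were higher and 0 lower at an unadjusted p under 0.05. Over all genes 56.6% had a higher mean, and 6.22% were higher and 4.81% lower at that p. The 48 h arrays all lay above the 24 h arrays in 6 of 14 genes and all below in 0 (7.08% and 5.27% of all genes). None was past an adjusted p under 0.05 in the model of 12 arrays. With array weights 3 were higher at that level, without 48 h array 1 it was 1, and without 48 h array 3 also 1. Dbi, an acyl-CoA binding protein, had 10.59, 10.82 and 10.81 at 24 h and 11.47, 11.43 and 11.11 at 48 h, a difference of 0.60 ± 0.12 (limma adjusted p = 0.160). Gpr37, an orphan receptor of glia, differed by 0.54 ± 0.13, Sox2, a transcription factor of Müller glia, by 0.50 ± 0.17 and Slc38a3, a glutamine transporter, by 0.48 ± 0.20. Further Sox2 probe sets, at 24 h means of 8.03 and 7.90, differed by -0.25 and -0.03.

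The textbook Müller markers moved less. Glul, glutamine synthetase, had 12.24, 12.47 and 12.39 at 24 h and 12.68, 12.49 and 12.68 at 48 h, a difference of 0.25 ± 0.12 that did not pass. Rlbp1, the retinaldehyde-binding protein CRALBP, differed by 0.01 ± 0.12, and its sign changed between settings.

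No reactive gliosis gene passed an adjusted p under 0.05 from 24 h to 48 h. Of 21 measured, 14 had a higher and 7 a lower mean at 48 h, with a median of 0.12, and 2 were higher and 0 lower at an unadjusted p under 0.05, shares near those over all genes (56.6% with a higher mean, 6.22% higher at that p). Gfap, the filament of reactive glia, had 11.23, 11.16 and 11.28 at 24 h and 11.14, 11.52 and 10.97 at 48 h, while the naive arrays lay between 6.95 and 9.32 and the 3 with the low β-actin gap between 6.95 and 7.16. The difference from 24 h to 48 h was -0.01 ± 0.29, which allows changes of either sign, and it became positive when 48 h array 3 was left out. Vim, vimentin, had 12.77, 12.80 and 12.57 at 24 h and 13.35, 13.19 and 12.86 at 48 h, a difference of 0.42 ± 0.15 (limma adjusted p = 0.441) with no overlap.

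Array 1 at 48 h set several other members apart. Spp1, osteopontin, had 9.79 there against 6.98 and 6.78, and Bcl3, a partner of NF-κB, 8.64 against 6.80 and 6.17. Lcn2, lipocalin 2, went from 10.82, 11.73 and 10.34 to 11.92, 10.27 and 9.75 (-0.32 ± 0.77), over a naive mean of 6.56. Gpnmb, a glycoprotein of phagocytes and pigment cells, had 10.73 in array 2 at 24 h against 7.88 and 6.77 in the other 2 arrays. By array, the list median was 0.75, -0.04 and -0.06 at 48 h, and without array 1 it was -0.01. From 48 h to 3 d the list median was -0.70, and Gfap went to a mean of 10.13 ± 0.23 (SD) before 11.25 ± 0.67 at 7 d, neither step past the test.

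**Figure D3:**
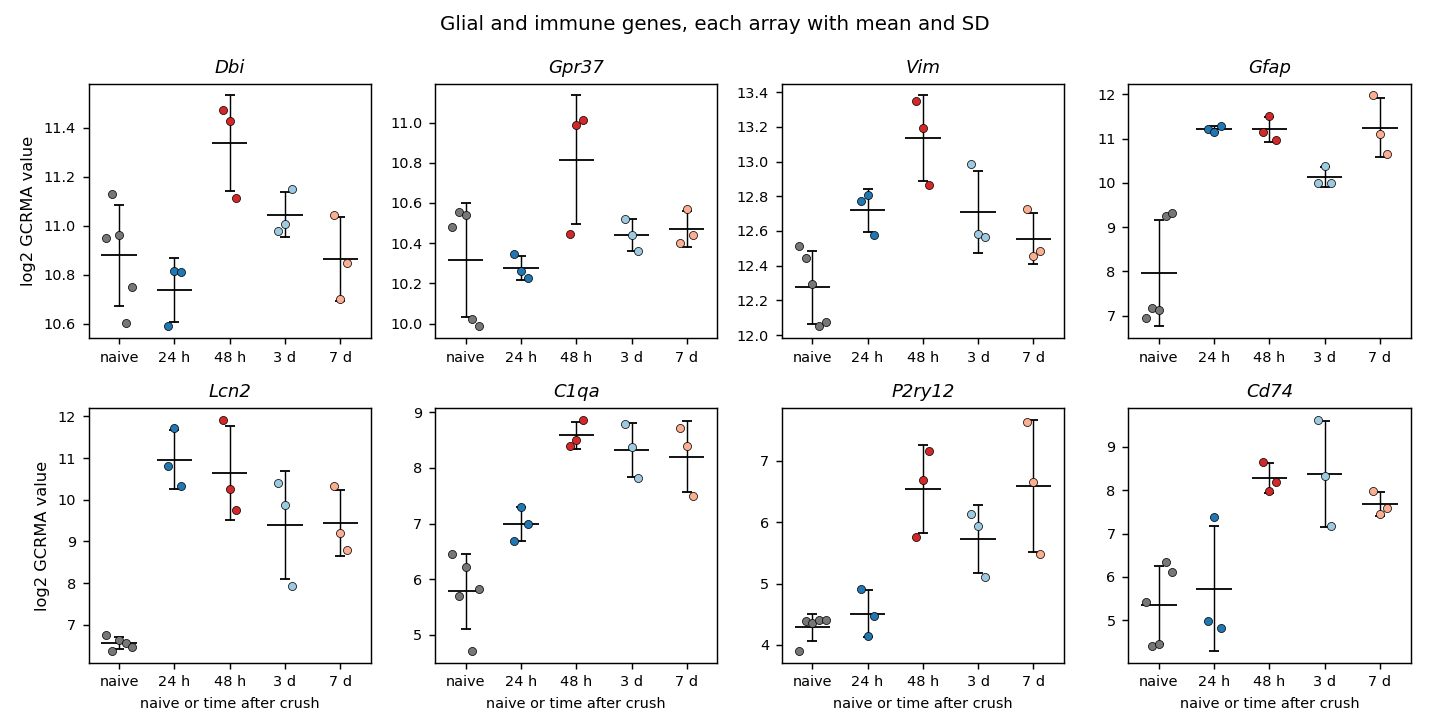
Log2 GCRMA values (y axis) of the Müller glia genes Dbi and Gpr37, the gliosis genes Vim, Gfap and Lcn2 and the microglial and immune genes C1qa, P2ry12 and Cd74 in each naive array and each array at 24 h, 48 h, 3 d and 7 d after crush (x axis), with mean and SD. Gfap and Lcn2 are near their highest level at both 24 h and 48 h, whereas the 48 h arrays of C1qa, P2ry12 and Cd74 all lie above the 24 h arrays.

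Microglial genes mostly had higher means at 48 h, without any member past an adjusted p under 0.05. With array weights 4 were higher at that level. Of 26 measured, 25 had a higher mean at 48 h and 1 a lower one, with a median of 0.45, where 56.6% of all genes had a higher mean. In 8 of the 26 both means were under a log2 value of 3, where a direction says little. At an unadjusted p under 0.05, 7 were higher and 0 lower, against 6.22% and 4.81% of all genes. C1qa, a chain of the complement starter C1q, had 6.68, 7.29 and 7.00 at 24 h and 8.40, 8.51 and 8.86 at 48 h, a difference of 1.60 ± 0.34 (limma adjusted p = 0.175). P2ry12, a receptor of resting microglia, went from 4.92, 4.15 and 4.48 to 5.77, 6.69 and 7.16 (2.03 ± 0.55), and Fcer1g, an Fc receptor chain, differed by 1.41 ± 0.54 and C1qc by 1.44 ± 0.52. The list median without array 1 at 48 h was 0.28, without array 3 at 24 h it was 0.15, and without array 2 at 24 h it was 0.82. Blood and leukocyte genes, of which 7 of 12 were measured, had a median of 0.79 in array 1 at 48 h and of -0.01 and -0.07 in arrays 2 and 3, and their part in the glial and immune results was not tested.

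Complement genes had a median of 0.44, with 10 of 12 higher in mean (56.6% of all genes) and 4 higher at an unadjusted p under 0.05 (6.22% of all genes), and 5 of the 12 had both means under a log2 value of 3. C1qb differed by 1.15 ± 0.32 and C3, the central complement component, by 0.96 ± 0.29. C1qa, C1qb and C1qc also belong to the microglia list, so the counts of these lists overlap. None of the 4 named complement genes (C1qa, C1qb, C1qc and C3), picked for their large differences, had overlapping groups at 24 h and 48 h. Over the whole list the 48 h arrays all lay above the 24 h arrays in 5 of 12 genes, where 7.08% of all genes did so. Levels of the 4 named genes at 3 d were between 5.80 and 8.33.

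Antigen presentation and interferon genes had the largest list medians. The MHC class II list had a median of 1.03 and the interferon response list one of 1.29. In mean, 7 of 8 and 23 of 24 members were higher (56.6% of all genes). At an unadjusted p under 0.05, 2 and 5 members were higher and 0 lower, where 6.22% of all genes were higher and 4.81% lower. Cd74, the invariant chain, had 4.97, 7.39 and 4.82 at 24 h and 8.66, 7.99 and 8.19 at 48 h, so array 2 at 24 h was close to the 48 h arrays. RT1-Bb, a class II β chain, went from 3.20, 3.36 and 2.72 to 6.33, 5.77 and 5.69 (2.84 ± 0.46, limma adjusted p = 0.0757). Its levels at 3 d and 7 d were 3.04 and 3.46.

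In the interferon list array 1 at 48 h was far above the others, with a list median of 2.49 against -0.07 and 0.83. Rsad2, viperin, had 8.48, 4.98 and 7.01 at 48 h over 3.33, 4.79 and 4.17 at 24 h. Tap1, a peptide transporter, had 8.26 in array 1 and 3.94 and 3.96 in arrays 2 and 3. Ifit2 differed by 1.71 ± 0.65. Without array 1 the interferon median was 0.40 and the MHC class II median 0.54. Of the MHC class II genes, RT1-Da (2.25 ± 1.07) varied most at 24 h, from 4.26 to 8.64.

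**Figure D4:**
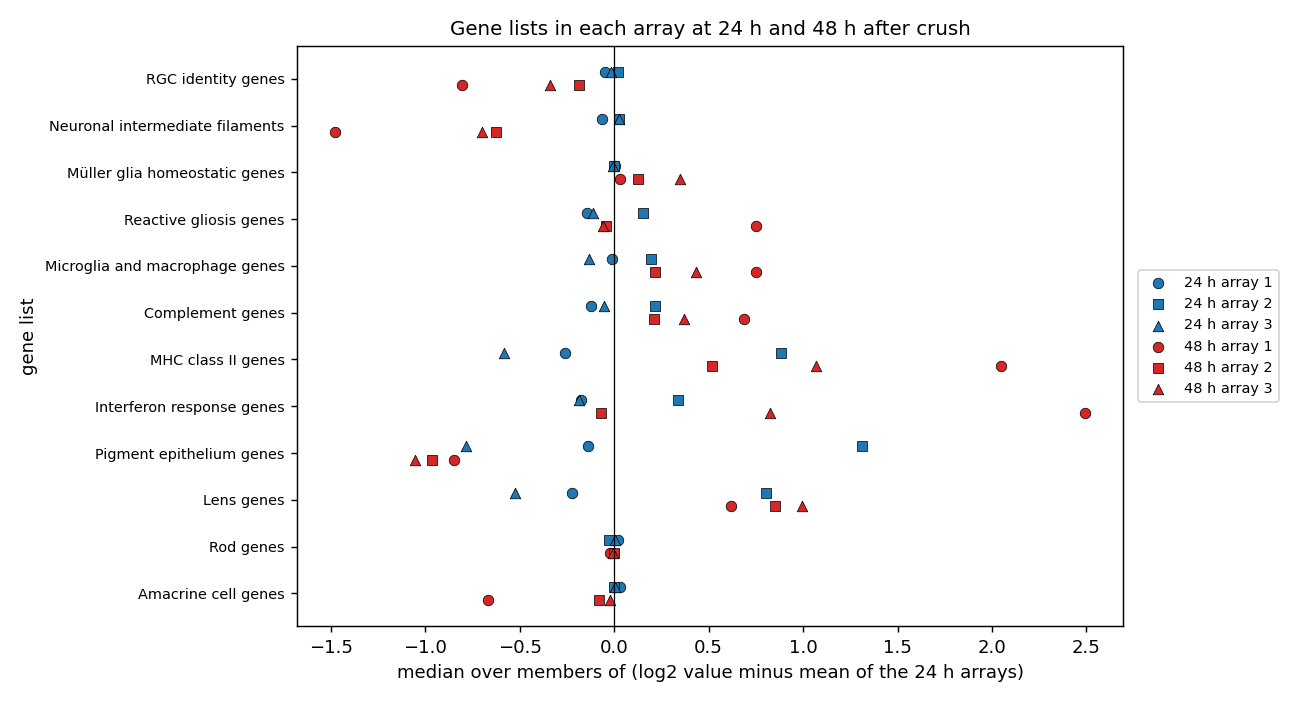
Median over the members of 12 gene lists (y axis) of the log2 value minus the mean of the 24 h arrays (x axis), for each array at 24 h (blue) and 48 h (red), with the marker shape giving the array number. Array 1 at 48 h is lowest for the RGC identity and filament genes and highest for the gliosis, microglia, complement, MHC class II and interferon lists, and array 2 at 24 h is apart in the pigment epithelium, lens and MHC class II lists.

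Tissues next to the retina moved with the groups. Pigment epithelium genes had a lower mean at 48 h in 9 of 9 measured (43.4% of all genes), with a median of -0.92. At an unadjusted p under 0.05, 4 were lower (4.81% of all genes). Their log2 summed signal ran from 11.32 to 12.97 at 24 h, from 10.78 to 10.93 at 48 h and from 11.09 to 12.63 in naive arrays. Rgr, an opsin of the pigment epithelium and Müller glia, had 8.48, 8.38 and 8.22 at 24 h and 7.40, 6.84 and 7.41 at 48 h. Rpe65, the retinoid isomerase, had 7.80, 8.36 and 6.82 against 5.29, 6.58 and 6.41. Pmel (-2.26 ± 0.98) and Dct (-1.19 ± 0.82), genes of pigment cells, were high in array 2 at 24 h, at 10.68 and 11.30. Without that array the list median was -0.38.

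Lens genes had a higher mean at 48 h in 14 of 14 (56.6% of all genes), with a median of 0.78. At an unadjusted p under 0.05, 9 were higher (6.22% of all genes). Their log2 summed signal ran from 15.83 to 16.58 at 24 h, from 16.80 to 17.01 at 48 h and from 16.33 to 17.35 in naive arrays. Mip, the lens water channel, had 3.88, 6.78 and 4.00 at 24 h and 7.17, 7.29 and 7.48 at 48 h. Crybb1, a β-crystallin, differed by 1.23 ± 0.38 and Cryab, αB-crystallin, which the retina also makes and the heat shock list holds, by 0.40 ± 0.08. Without array 2 at 24 h the lens median was 1.49. Neither the pigment epithelium nor the lens list had a member past an adjusted p under 0.05. The part of tissue carried along at dissection in the results above was not tested.

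Lists of the other retinal neurons had medians between -0.15 and 0.00. Rod genes had a median of 0.00, with 13 of 24 higher in mean (56.6% of all genes). At an unadjusted p under 0.05, 1 was higher and 3 lower (6.22% and 4.81% of all genes). Cnga1, the rod channel subunit, had 12.96, 12.91 and 12.89 at 24 h and 12.61, 12.63 and 12.58 at 48 h (-0.31 ± 0.07, limma adjusted p = 0.176), and Gnat1 differed by 0.30 ± 0.09. Cone genes had a median of -0.05 over 9 genes, and Opn1mw, the middle-wave opsin, differed by -1.18 ± 0.40. Bipolar (-0.10, 10 genes) and horizontal cell genes (-0.03, 5 genes) had 0 members at an unadjusted p under 0.05.

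Amacrine genes had a median of -0.15 over 13 genes. Calb2, calretinin, which amacrine and ganglion cells both contain, had 11.75, 11.87 and 12.01 at 24 h and 10.83, 11.28 and 11.38 at 48 h (-0.71 ± 0.15, limma adjusted p = 0.172). In array 1 at 48 h the amacrine, bipolar, horizontal and cone lists were lower too, at -0.67, -0.42, -0.39 and -0.34, against -0.08 to 0.08 in arrays 2 and 3. The lists of synaptic vesicle genes (0.01, 20 genes), with Syt1 at -0.73 ± 0.26, and of microtubule and motor genes (-0.03, 22 genes), with Tuba4a at 0.58 ± 0.16, were split in direction. Sodium and potassium channel genes had a median of -0.13 over 17 genes. At an unadjusted p under 0.05, 4 were lower and 0 higher (4.81% and 6.22% of all genes). The 4 included Scn1a, Scn2a (-0.95 ± 0.40) and Scn3b (-0.61 ± 0.21). That median was 0.05 without array 1 at 48 h.

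Signalling and stress genes gave further values of interest. In the gp130 and JAK-STAT list (median 0.00, 24 genes), 7 had both means under a log2 value of 3. At an unadjusted p under 0.05, 0 members were higher and 2 lower (6.22% and 4.81% of all genes). The 2 were Stat3 (-0.70 ± 0.25) and its receptor chain Il6st (-0.38 ± 0.13). Stat3 was above its naive mean of 8.17 in every array, at 10.11, 10.26 and 10.93 at 24 h and 9.85, 9.94 and 9.41 at 48 h. A second Stat3 probe set differed by -0.24, from a mean of 9.69 to one of 9.45. In the integrated stress response list (0.19, 20 genes), 4 were higher and 1 lower at an unadjusted p under 0.05 (6.22% and 4.81% of all genes). Nupr1, a stress-induced nuclear protein, went from 5.33, 5.11 and 4.13 to 8.40, 6.78 and 6.70 (2.44 ± 0.61) and Phgdh, the first enzyme of serine synthesis, by 0.80 ± 0.17. Trib3, a pseudokinase of the same response, went the other way (-1.01 ± 0.36).

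Among death receptor, caspase and Bcl-2 genes (0.02, 26 genes), 13 had both means under a log2 value of 3. At an unadjusted p under 0.05, 4 were higher and 0 lower (6.22% and 4.81% of all genes). The 4 included Tnfrsf12a, Bcl2l1 (0.76 ± 0.21), which encodes the survival protein Bcl-xL, and Casp9 (0.48 ± 0.15), the initiator caspase of the mitochondrial pathway. A second Bcl2l1 probe set, with a 24 h mean of 5.23, differed by -0.04. Growth arrest genes (0.16, 12 genes) held Gadd45a (0.46 ± 0.10) and Ccng1 (-0.54 ± 0.14) with no overlap of groups. Proliferation genes (0.31, 26 genes) rested on array 1 at 48 h, with Mki67 at 7.05 against 4.24 and 4.95, and their median was 0.01 without it. Ccnd1, cyclin D1, had 11.54 in that array against 8.17 and 8.27.

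Metabolic lists had medians near 0. Srxn1, sulfiredoxin, an antioxidant enzyme, differed by 0.80 ± 0.16 and Tfrc, the transferrin receptor, by -0.80 ± 0.16 in the iron and antioxidant list (0.02, 11 genes). Both had groups without overlap, and their adjusted p-values were 0.163 and 0.159. In the lipid and cholesterol list (-0.07, 10 genes), Fdps, farnesyl diphosphate synthase, had 10.52, 10.72 and 10.73 against 10.26, 10.13 and 10.17 (-0.47 ± 0.07, limma adjusted p = 0.0737), and Insig1, a brake on sterol synthesis, differed by -0.42 ± 0.13. Hk2, hexokinase 2, differed by 1.09 ± 0.35.

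Of the genes of the study's own qRT-PCR, 9 of 10 were measured with 1 symbol. In mean, 5 were higher and 4 lower at 48 h (56.6% and 43.4% of all genes). At an unadjusted p under 0.05, 2 were higher (6.22% of all genes). Tnfrsf12a was described above. Ccl2, a chemokine for monocytes, had 8.78, 10.19 and 6.92 at 24 h and 9.92, 6.61 and 5.97 at 48 h, and its SE of 1.66 exceeded the difference of -1.13. Ahr, the aryl hydrocarbon receptor, differed by -0.84 ± 0.46.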

How the data were processed

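Total RNA of whole retinas, in pools of 4, was hybridised to Affymetrix RAE230 2.0 arrays. The authors deposited log2 values made with GCRMA, which corrects background, normalizes by quantiles and compresses differences near the lower end of the scale (log2 under 3). The GCRMA version was not given in the sources used here. The 3 arrays per group limit the precision, and an exact permutation test of 3 against 3 cannot go below p = 0.1 (two-sided).

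Of 31099 probe sets, 57 controls were removed. Of the 31042 tested, 20826 had 1 symbol in the platform annotation, 436 several and 9780 none. Each of 14217 genes was taken at its brightest probe set over all arrays. The 12 arrays of IONC 24 h, 48 h, 3 d and 7 d were fitted with limma 3.58.1 in R 4.3.3, with 8 residual degrees of freedom. IONC 12 h was left out because its array 2 stands apart. The fit was tested on simulated data.

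Members and gene lists were chosen with earlier results of these data known, and lists were counted, not tested. Some genes, such as Scn1a and Tnfrsf12a, stand in more than 1 list and were counted in each. Named genes were the 10 largest increases and decreases without overlap (filled up from an adjusted p under 0.05), called list members, up to 4 members per list with the largest difference and a mean of at least 5, marker genes whatever their change, and the qRT-PCR genes. Alternatives covered thresholds, a low-value filter, arrays in the model, variance moderation, array weights, a replicate block, centring, cyclic loess, probe set choice and leaving out each array.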

Additional observations from a re-analysis of the deposited data

Results flagged for a closer look

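Among the naive arrays, 1 value lay apart from the other 4 in 4 of 89 probe sets, where chance gives about 1 in 20. The limit was a gap to the nearest value over 0.71 of the range (Dixon's limit for 5 values). The 89 stand for genes described in the text. Further genes met the naming rules and were checked, and of these Cx3cl1, Mcm6, Mmp3, Slc2a1 and Acta2 were also past the limit. Fxyd7 had 3.27 in naive array 4 against 4.25 to 4.40 in the others. Nefl had 11.44 in naive array 5 against 11.75 to 11.80. P2ry12 had 3.90 in naive array 1 against 4.36 to 4.41. Mki67 had 3.54 in naive array 3 against 3.62 to 3.65. Naive arrays entered the model for 48 h against 24 h only in the alternative fits to all arrays.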

How the results depend on the processing

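The counts of probe sets called from 24 h to 48 h (2 higher, 1 lower) depended on the setting. They were 22 and 10 at an adjusted p under 0.05, 29 and 22 with array weights, 0 and 0 with the 24 h and 48 h arrays alone and 0 and 0 with the replicate block. The higher count became 1 at 1.5-fold and 1 with all 15 IONC arrays, and the lower count 2 with the low-value filter, 2 with a variance trend and 0 after cyclic loess. With all arrays but IONC 12 h array 2, a setting chosen after seeing the data, they were 12 and 8. Leaving out 1 array gave 1 to 28 higher and 1 to 18 lower, the highest counts without 48 h array 3. At an adjusted p under 0.05, Thy1 passed under 10 of 16 alternatives, Nrn1 9, Sncg 7, Rbpms2 7 and Nefh 6, with highest adjusted p-values of 0.639, 0.266, 0.233, 0.537 and 0.234. The counts of probe sets at that level (22 higher and 10 lower) also depended on the setting. With the 24 h and 48 h arrays alone 1 probe set was higher and 0 lower, and with all 15 IONC arrays 3 and 1. Array weights gave 920 and 1074, and leaving out 48 h array 3 gave 183 and 177.

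Called members of the RGC identity list (0) were 4 at an adjusted p under 0.05, 2 with array weights and 2 with all arrays but IONC 12 h array 2, where 2 filament genes (0 before) were also called. Leaving out 1 array gave 0 to 1 called RGC genes and 0 in the filament, Müller, gliosis and microglia lists. With the low-value filter the RGC median was -0.79 and the microglia median 0.89, and when all probe sets for 1 gene were averaged the Müller median was 0.059. Leaving out 1 array gave medians of -0.55 to -0.23 (RGC), -1.11 to -0.74 (filaments), 0.16 to 0.24 (Müller), -0.01 to 0.39 (gliosis) and 0.15 to 0.82 (microglia).

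For 48 h to 3 d, 3 d to 7 d and 24 h to 7 d, the counts of 1, 1 and 11 became 17, 2 and 34 at an adjusted p under 0.05, 18, 32 and 339 with array weights, 12, 11 and 33 with all arrays but IONC 12 h array 2, 0, 5 and 21 with all 35 arrays and 0, 0 and 5 with all 15 IONC arrays. They were 0, 0 and 18 both with the low-value filter and with a variance trend. At 1.5-fold the first was 0, and with centred arrays the first was 0 and the second 0. Leaving out 1 array gave 0 to 35, 1 to 5 and 3 to 23.

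Same-numbered arrays at 24 h and 48 h did not deviate together (r = -0.04, -0.06 and 0.11 for numbers 1 to 3), so the replicate number was not taken as a pairing. With the replicate block, 24 h to 7 d gave 4, and 1 RGC identity gene (Thy1) was lower at an adjusted p under 0.05 from 24 h to 48 h.

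The sign turned for genes with small or variable differences. Gfap was 0.13 with array weights and 0.015 after cyclic loess, and between -0.17 and 0.11 with 1 array left out (0.02 without 24 h array 3 or 48 h array 1). Rlbp1 was -0.019 with centred arrays and between -0.043 and 0.093 with 1 array left out, turned without 24 h array 1 or 2 or 48 h array 2 or 3. Lcn2 lay between -0.95 and 0.13, positive without 24 h array 2 or 48 h array 3, and Gpnmb between -0.15 and 1.83, negative without 24 h array 3. Without 48 h array 1, Ccnd1 was -0.085 (up to 1.60 without others), Slc17a6 0.025 (down to -0.52) and Sprr1a -0.23 (up to 2.38).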

Other observations

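Lists outside the comparisons above had medians from 24 h to 48 h of 0.17 for endothelins and receptors (3 genes), 0.15 for endothelial genes (11), 0.00 for mural cell genes (9), 0.00 for oligodendrocyte genes (6), 0.00 for blood and leukocyte genes (7), 0.02 for chemokines (15), 0.00 for immediate early genes (22), -0.05 for endoplasmic reticulum chaperones (15), 0.25 for heat shock genes (8), 0.09 for proteases, inhibitors and matrix genes (28) and -0.03 for glycolysis and hypoxia genes (15). None had a member past an adjusted p under 0.05.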
